A study of Mus musculus with 6 samples.

Results

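Adcyap1r1, Vipr2, Sstr3 and Prlr encode cell surface receptors for the neuropeptide PACAP, for vasoactive intestinal peptide (VIP), for somatostatin and for the pituitary hormone prolactin. They form a group because each has known roles in both brain and thymus. The rule that names them uses no measured value, although they were chosen with earlier results of these data known. Their spots were located through the gene entry printed for each spot of a neurotransmission oligonucleotide array. Adcyap1r1 was printed as Adcyaplr1, Sstr3 as smstr3 and Prlr as PRL R. The 4 genes, of 283 gene names on the array, had 8 oligonucleotides (oligos), 2 per gene, of 590 gene oligos, and the oligos of a gene were kept apart.

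Both tissues came from adult B10D2 mice, an inbred strain, and the labels give no treatment or genotype beyond the strain. The cortex group was 1 RNA pool of 6 cortices hybridized on 3 arrays, and the thymus group was 1 RNA pool of 5 thymi hybridized on 3 arrays. Each array received 15 µg of total RNA, labelled with Cy5 by reverse transcription and read in 1 colour. The 3 arrays of a tissue are thus repeat hybridizations, so every p-value below measures the spread between hybridizations of a pool and not between animals.

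PACAP and VIP are related peptides. PAC1, the product of Adcyap1r1, prefers PACAP, while VPAC2, the product of Vipr2, binds both peptides, and both receptors raise cyclic AMP through a stimulatory G protein. Sstr3 encodes an inhibitory G protein-coupled receptor that lowers cyclic AMP, and in neurons it is known for its place on the primary cilium. The prolactin receptor is a cytokine receptor that signals through JAK2 and STAT5 and is made in several isoforms by alternative splicing. PACAP and VIP are known to act on neurons and also on T cells and their precursors, and somatostatin and prolactin receptors have been described in thymus.

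Cortex arrays were brighter than thymus arrays scanned at the same setting. The median gene spot had a net signal, the spot median minus its local background median, of 2491, 1764 and 816 scanner units on the cortex arrays, against 917, 468 and 582 on the thymus arrays. Above background, defined as a spot median over the local background median plus 2 SD, lay 418 to 509 of the 590 oligos on cortex arrays and 271 to 394 on thymus arrays. Scaled values correlated across oligos at r = 0.916 to 0.950 between cortex arrays, 0.801 to 0.873 between thymus arrays and 0.583 to 0.686 between tissues. Of 6 oligos of the neuronal genes Eno2 and Gad2, 5 were higher in cortex, and their summed net signal was 32802 to 70811 on cortex arrays against 3009 to 4966 on thymus arrays. Of the 2 oligos of the oligodendrocyte gene Mbp, 1 was higher in cortex (3.66 log2 units) and 1 lower (-1.44), and their summed net signal was 27931 to 68960 on cortex arrays against 3443 to 6863 on thymus arrays. Of the 2 oligos of the B cell gene Pax5, oligo 2 was lower in cortex (-2.33 ± 0.35, SE, limma, adjusted p = 5.26e-05) and oligo 1, at -0.30, did not pass, with summed net signals of 618 to 2669 on cortex arrays against 1369 to 3002.5 on thymus arrays. Thymocyte and thymic epithelium markers were not printed, so the thymus label could not be checked against them.

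All 8 oligos of the 4 receptor genes differed between the tissues after scaling between arrays, in different directions. Both Adcyap1r1 oligos were higher in cortex, both Vipr2 oligos and both Sstr3 oligos were lower in cortex, and the 2 Prlr oligos went opposite ways. Scaled values are background-corrected log2 signals after quantile scaling, which gives every array the same distribution. In a limma fit of them across 465 oligos that were above background on at least 3 of 6 arrays, 8 of 8 receptor oligos passed an adjusted p of 0.05 (Benjamini-Hochberg), 3 higher and 5 lower in cortex. Of all tested oligos 47.7% passed, 24.3% higher and 23.4% lower in cortex, so a passing oligo was common on this array. Adcyap1r1 oligo 2 entered the fit through its 3 cortex arrays alone, being above background on 0 of 3 thymus arrays. Scaled values of the 2 tissues did not overlap for 8 of 8 receptor oligos, against 55.9% of all tested oligos, 26.7% with cortex above and 29.2% with cortex below thymus. The median difference, cortex minus thymus, was -1.08 log2 units over the 8 receptor oligos and -0.10 over all 465. Without cortex array 1, 2 and 3 in turn, 6 of the 8 could be tested each time, of which 6, 4 and 5 passed. Of all tested oligos, 117 of 356, 111 of 363 and 139 of 387 passed in the same fits. In these bulk samples, fewer cells of a type and less RNA per cell cannot be told apart.

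**Figure D1:**
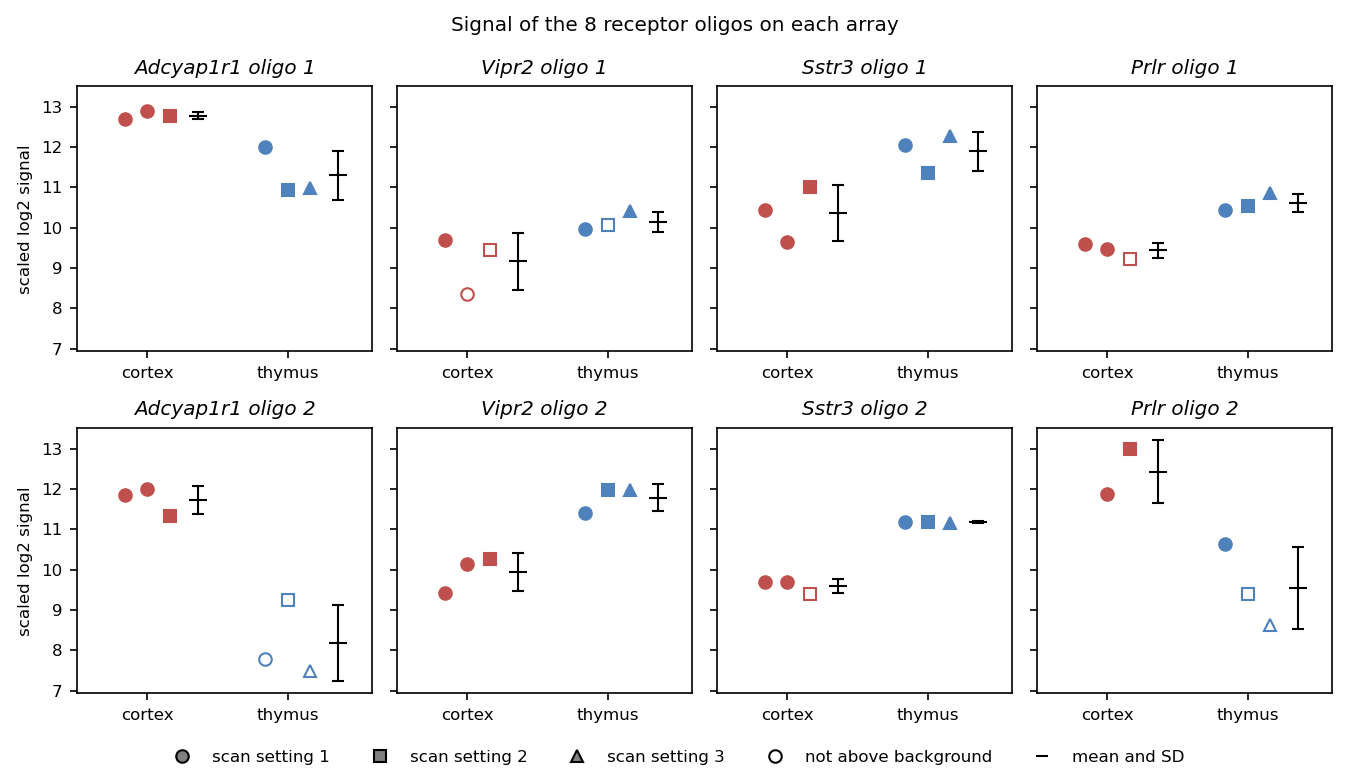
Scaled log2 signal (y axis) of each receptor oligo on the 3 cortex arrays (red) and the 3 thymus arrays (blue), with the mean and SD in black, marker shape for the scan setting and open markers for values not above background. Cortex lies above thymus for both Adcyap1r1 oligos and Prlr oligo 2, and below thymus for the other 5 oligos; cortex array 1 has no value for Prlr oligo 2.

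Adcyap1r1, the PACAP receptor gene, was above background on every cortex array with both oligos. Oligo 1 had net signals of 14918, 13017 and 4220 scanner units on the cortex arrays, against 3956.5, 885.75 and 1006.75 on the thymus arrays. Every cortex array was above every thymus array before scaling, at the closest 4220 against 3956.5. The median gene spot was also brighter on cortex arrays 1 and 2 than on every thymus array, so unscaled values favour cortex. After scaling, oligo 1 averaged 12.78 ± 0.10 log2 units in cortex and 11.30 ± 0.61 in thymus (SD, n = 3 arrays each). The difference was 1.48 ± 0.38 log2 units (SE), or 2.78-fold higher in cortex, with a 95% interval of 0.69 to 2.27 and an adjusted p of 0.00408 (limma). Oligo 1 was above background on 3 of 3 thymus arrays, so signal at this entry was measured in both tissues.

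Oligo 2 of Adcyap1r1 gave a measured signal in cortex only. Its net signals were 8728, 7234 and 1863.5 scanner units on the cortex arrays, against -6, 101.75 and -72.5 on the thymus arrays, where it was above background on 0 of 3 arrays. The lowest cortex array had a scaled value of 11.34 log2 units and the highest thymus array 9.26, with means of 11.73 ± 0.35 and 8.18 ± 0.95 (SD, n = 3 arrays each). Since thymus has only a bound here, cortex was at least 4.0-fold higher. The adjusted p of 9.29e-06 (limma) belongs to the fitted difference, which uses thymus values not above background, and not to the bound. The oligo entered the fit through the cortex arrays alone. The bound sets the cortex mean against, for each thymus array, the higher of the oligo's own value and the lowest value among oligos above background. Fitted differences of oligo 2 given below rest on these thymus values and are not measured sizes. Oligo 1, measured in both tissues, was number 78 of 465 from the cortex end.

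Vipr2, the VIP and PACAP receptor gene, went the other way. Oligo 2 had net signals of 1282, 1631 and 884.75 scanner units on the cortex arrays, against 2485, 2086 and 2094 on the thymus arrays. It was the one receptor oligo lower in cortex whose tissues did not overlap before any scaling, although the thymus arrays as a whole were dimmer. Scaled values were 9.41, 10.15 and 10.27 log2 units in cortex and 11.40, 11.99 and 11.98 in thymus, all above background. The difference was -1.84 ± 0.37 log2 units (SE, n = 3 arrays each), or 3.59-fold higher in thymus, with a 95% interval of -2.63 to -1.06 and an adjusted p of 0.000627 (limma). It was number 21 of 465 from the thymus end.

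Oligo 1 of Vipr2 was dim in both tissues and its call was the weakest of the 8. Its net signals were 1619, 249 and 486.5 scanner units on the cortex arrays and 729.5, 358 and 640.25 on the thymus arrays, which overlap. It was above background on 1 of 3 cortex arrays and 2 of 3 thymus arrays. After scaling it averaged 9.17 ± 0.71 log2 units in cortex and 10.15 ± 0.24 in thymus (SD, n = 3 arrays each), a difference of -0.98 ± 0.39 (SE) with an adjusted p of 0.0486 (limma). The call was lost without cortex array 2 (-0.57, adjusted p = 0.286, limma) and without cortex array 3 (-1.05, adjusted p = 0.0757, limma), and under most other processing settings tried.

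**Figure D2:**
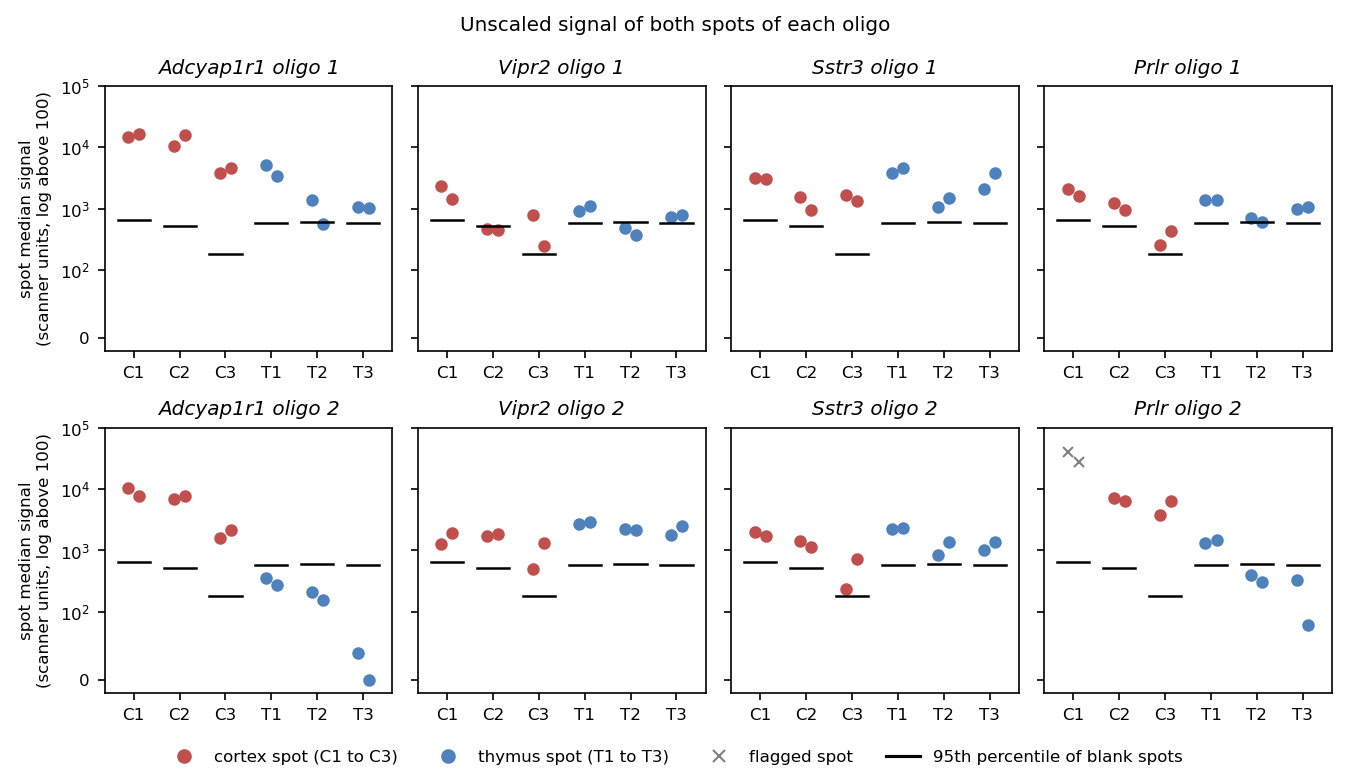
Unscaled median signal of both spots of each receptor oligo (points, scanner units, y axis log above 100 and linear below) on cortex arrays C1 to C3 (red) and thymus arrays T1 to T3 (blue), with the 95th percentile of each array's blank spots as a black line. Adcyap1r1 oligo 2 lies below the blank line on all 3 thymus arrays, Vipr2 oligo 2 is brighter on the thymus arrays, and the crosses are the flagged spots of Prlr oligo 2.

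The promoters of Adcyap1r1 and Vipr2 are shown because the oligos of these related receptor genes differed between the tissues in opposite directions. Each is the 250 bases before the RefSeq gene start in build GRCm38.p6, 5′ to 3′ on the gene's strand, at chr6:55451728-55451977 (plus strand) for Adcyap1r1 and chr12:116077476-116077725 (plus strand) for Vipr2. Capitals mark GGGCGG, the GC box, read on either strand.
Adcyap1r1: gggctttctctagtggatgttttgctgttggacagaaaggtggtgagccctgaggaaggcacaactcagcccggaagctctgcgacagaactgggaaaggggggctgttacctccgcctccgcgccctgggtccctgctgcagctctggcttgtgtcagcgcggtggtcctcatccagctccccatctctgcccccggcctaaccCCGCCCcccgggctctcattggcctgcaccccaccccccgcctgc
Vipr2: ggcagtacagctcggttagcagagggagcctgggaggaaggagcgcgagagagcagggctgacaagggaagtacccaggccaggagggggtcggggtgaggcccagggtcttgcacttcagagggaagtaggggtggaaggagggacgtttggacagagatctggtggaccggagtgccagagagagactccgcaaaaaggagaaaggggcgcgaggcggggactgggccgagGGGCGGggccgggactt
Both windows were GC rich, at 65.6% for Adcyap1r1 and 65.2% for Vipr2, and held 11 and 13 CpG dinucleotides, where the median of 32851 RefSeq promoter windows of this length was 6. Each held 1 GC box, as did at least 1 in 32.7% of all windows. TGACG, the core of the cyclic AMP response element, found in 17.8% of windows, and TATAAA, the TATA box found in 12.4%, had no match on either strand in these 2 windows. The table gives several starts for the other receptor genes: TGACG had 1 match in 1 of 2 Sstr3 windows and in 1 of 3 Prlr windows. A match here is a description of letters only, and nothing in the array data bears on the use of these promoters.

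Sstr3, the somatostatin receptor gene, had the closest agreement between its oligos of the 4 genes. Oligo 2 had scaled values of 9.71, 9.69 and 9.41 log2 units in cortex and 11.19, 11.19 and 11.15 in thymus, with means of 9.60 ± 0.17 and 11.18 ± 0.02 (SD, n = 3 arrays each). All thymus arrays were higher than all cortex arrays, and they differed among themselves by less than the cortex arrays did. The difference was -1.58 ± 0.34 log2 units (SE), 2.98-fold higher in thymus, with a 95% interval of -2.29 to -0.86 and an adjusted p of 0.00112 (limma). Oligo 1 had scaled values of 10.43, 9.64 and 11.02 log2 units in cortex and 12.06, 11.35 and 12.29 in thymus. Here too the tissues did not overlap, although cortex array 3 and thymus array 2 were only 0.33 log2 units apart. The difference was -1.53 ± 0.41 log2 units (SE, n = 3 arrays each), 2.90-fold higher in thymus, with an adjusted p of 0.00544 (limma). Without cortex array 2 it was -1.15 with an adjusted p of 0.0625 (limma).

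Before scaling, the tissues overlapped on both Sstr3 oligos. Net signals of oligo 1 were 2931, 1071 and 1449.5 scanner units on the cortex arrays and 4009, 1213 and 2884 on the thymus arrays. Net signals of oligo 2 were 1576, 1110 and 454.25 on the cortex arrays and 2078.5, 1046 and 1165.5 on the thymus arrays. The thymus values reached higher than the cortex values on both oligos, while the median gene spot was dimmer on every thymus array than on cortex arrays 1 and 2. Oligo 1 was above background on 3 of 3 cortex arrays and oligo 2 on 2 of 3, and both were on 3 of 3 thymus arrays.

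Prlr, the prolactin receptor gene, had oligos that passed in opposite directions. Oligo 1 was lower in cortex, with scaled values of 9.60, 9.48 and 9.22 log2 units in cortex and 10.43, 10.53 and 10.86 in thymus. The tissues did not overlap, and their SDs were 0.19 in cortex and 0.22 in thymus (n = 3 arrays each). Oligo 1 was above background on 2 of 3 cortex arrays and 3 of 3 thymus arrays. The difference was -1.17 ± 0.35 log2 units (SE, n = 3 arrays each), 2.25-fold higher in thymus, with an adjusted p of 0.0102 (limma). Its net signals overlapped before scaling, at 1463, 919 and 324 scanner units on the cortex arrays and 1089, 585 and 929 on the thymus arrays.

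Oligo 2 of Prlr was higher in cortex. Both of its spots were flagged on cortex array 1, so the fit rests on 2 cortex arrays, with net signals of 6815.5 and 5131, and on 3 thymus arrays, with 1339, 137.5 and 90.5. The scaled values were 11.88 and 12.99 log2 units in cortex and 10.65, 9.39 and 8.63 in thymus, where only array 1 was above background. Cortex averaged 12.43 ± 0.78 (SD, n = 2 arrays) and thymus 9.56 ± 1.02 (SD, n = 3 arrays). The difference was 2.88 ± 0.53 log2 units (SE), or 7.35-fold higher in cortex against a thymus mean with 1 of 3 arrays above background, with a 95% interval of 1.75 to 4.0 and an adjusted p of 0.000384 (limma). The flagged spots read 40972 and 27581 scanner units, below saturation, and with them kept the difference was 3.41 ± 0.55 (SE, limma, adjusted p = 0.00025).

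Disagreement between the oligos of an entry was not particular to Prlr. Of 186 entries with both oligos tested, 57 had both past the threshold, 50 in the same direction and 7, or 12.3%, in opposite directions. Adcyap1r1, Vipr2 and Sstr3 were among the 50 and Prlr among the 7. The absolute gap between the 2 oligos' differences had a median of 0.69 log2 units over the 186 entries, some of which hold an oligo with only a bound in 1 tissue. It was 0.04 for Sstr3, 0.87 for Vipr2 and 4.05 for Prlr. For Adcyap1r1 it is not measured, since oligo 2 has only a bound; with oligo 2 at that bound, the gap was 0.52. Oligo positions on the transcripts were not used here, so the Prlr values cannot be assigned to isoforms. Duplicate spots of 1 oligo on the same array were compared by log2 net signal, with net signals under 50 set to 50. Their median absolute difference was 0.35 log2 units over 47 receptor spot pairs and 0.43 over 3223 pairs of all gene oligos. This compares signals and not tissue differences, so it is not a like measure to the gaps above.

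**Figure D3:**
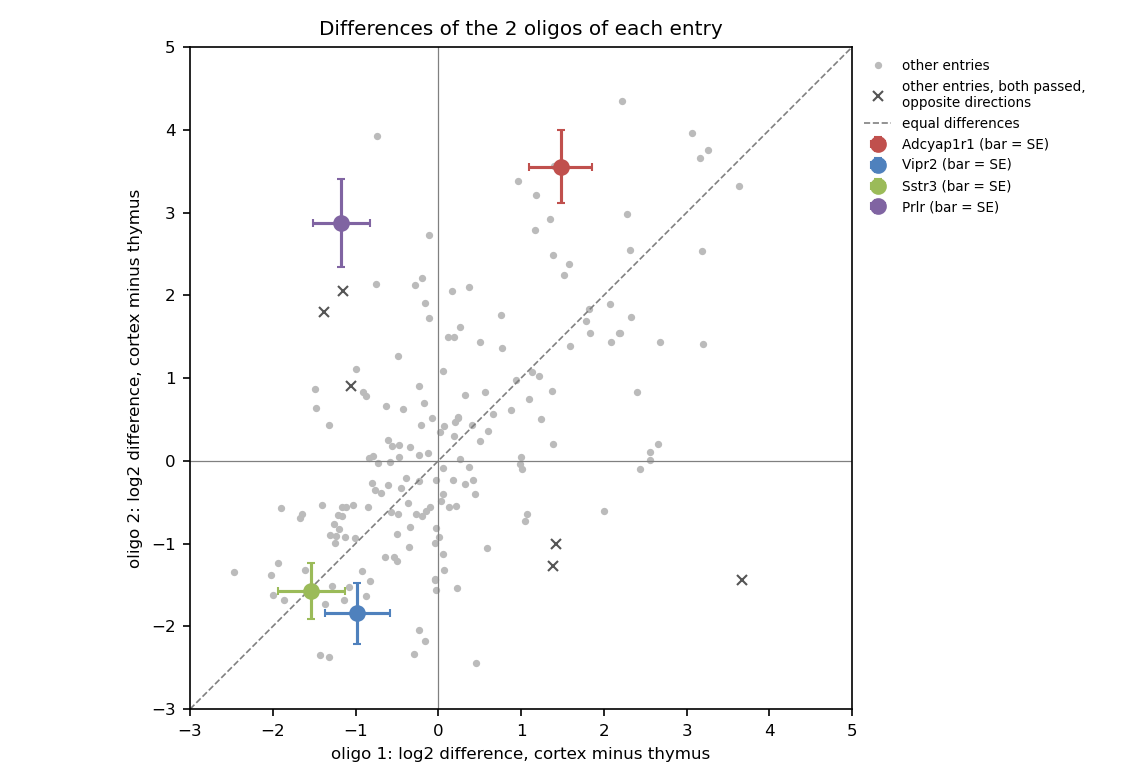
Difference between cortex and thymus (log2 units, cortex minus thymus) of oligo 1 (x axis) against oligo 2 (y axis) for the 186 entries with both oligos tested, with SE bars for the 4 receptor genes and a dashed line of equal differences. Sstr3 lies next to the line, with a gap of 0.04, and Prlr lies far from it in the upper left, with a gap of 4.05; the y value of Adcyap1r1 is a fitted one, as its oligo 2 has only a bound in thymus.

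The calls in the cortex direction held under each scaling between arrays, and those in the thymus direction depended on it. With no scaling, the median of all tested oligos was 0.84 log2 units toward cortex, and with arrays centred on control genes it was 0.34. Both settings thus shift differences toward cortex, which favours calls higher in cortex and works against calls lower in cortex. That the cortex calls held under them gives those calls no added weight. Unscaled, 115 oligos (24.7%) passed as higher in cortex and 0 (0%) as lower by limma, against 6 (1.29%) lower at an unadjusted p under 0.05. Both Adcyap1r1 oligos and Prlr oligo 2 still passed unscaled, at fitted differences of 2.43, 4.32 and 3.42 log2 units (limma, adjusted p = 0.00502, 2.15e-07 and 0.000304). Unscaled, the 5 others kept a negative difference, from -0.84 for Vipr2 oligo 2 to -0.019 for Vipr2 oligo 1, and none passed. Centred on control genes, Vipr2 oligo 2 passed at -1.36 (limma, adjusted p = 0.00881) and Sstr3 oligo 2 at -1.08 (limma, adjusted p = 0.0325), where 28.6% of all oligos passed as higher and 8.39% as lower in cortex. Sstr3 oligo 1 (-1.03), Prlr oligo 1 (-0.73) and Vipr2 oligo 1 (-0.54) did not pass there.

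Relative to the median of all tested oligos, the receptor oligos moved little between the 4 scalings. Apart from quantile scaling, these shift all oligos of an array by the same amount. Nearly equal relative values were thus set in advance and give the calls no added weight. Adcyap1r1 oligo 1 lay 1.57 to 1.59 log2 units above that median. Oligo 2 of Adcyap1r1, with only a bound in thymus, had fitted values of 3.45 to 3.66 above it, which do not measure its size. For Vipr2 the range was -1.74 to -1.68 on oligo 2 and -0.88 to -0.86 on oligo 1. For Sstr3 it was -1.43 to -1.35 on oligo 1 and -1.48 to -1.40 on oligo 2. Prlr spanned -1.07 to -1.04 on oligo 1 and 2.58 to 2.98 on oligo 2.

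**Figure D4:**
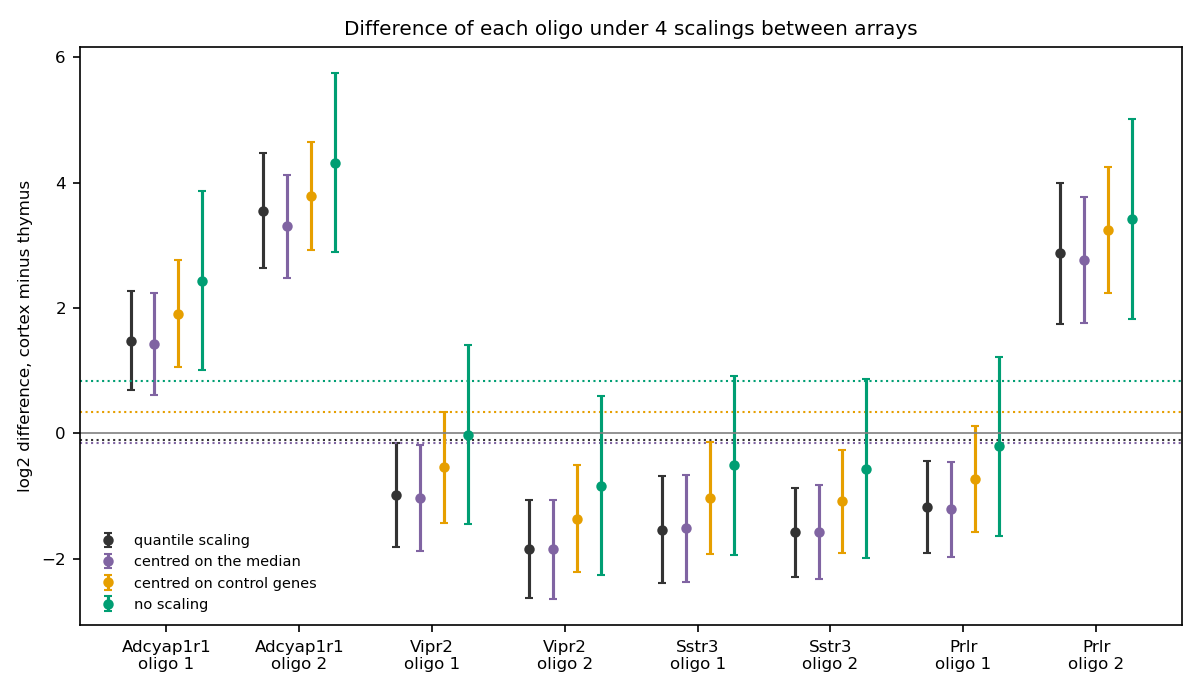
Difference of each receptor oligo (log2 units, cortex minus thymus, with 95% intervals) under quantile scaling, centring on the array median, centring on control genes and no scaling, with dotted lines for the median of all tested oligos under each. The 3 cortex-higher oligos stay above 0 throughout, and the 5 others shift up with the dotted line, to between -0.84 and -0.019 with no scaling.

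The image names in the headers held 3 different number pairs, taken here as 3 scan settings. Setting 1 held cortex arrays 1 and 2 and thymus array 1. Setting 2 held cortex array 3 and thymus array 2, and setting 3 held thymus array 3 alone. All 8 oligos kept their direction within both settings that held both tissues. This had to follow, since scaled values of the tissues did not overlap for any of the 8, so it is no further check. Adcyap1r1 oligo 1 differed by 0.78 log2 units within setting 1 and 1.83 within setting 2, and the fitted values of oligo 2, not above background in thymus, were 4.14 and 2.08. Vipr2 oligo 2 differed by -1.62 within setting 1 and -1.72 within setting 2, and Sstr3 oligo 2 by -1.49 and -1.78. The values of Sstr3 oligo 1 were less alike, at -2.02 within setting 1 and -0.33 within setting 2. Those of Prlr oligo 2 were also less alike, at 1.23 and 3.60, the first without cortex array 1, where its spots were flagged. Prlr oligo 1 differed by -0.89 and -1.31, and Vipr2 oligo 1 by -0.93 and -0.62. Cortex array 1 and thymus array 1, which also shared a scan day, differed by 0.69 for Adcyap1r1 oligo 1, -1.99 for Vipr2 oligo 2, -1.63 for Sstr3 oligo 1, -1.48 for Sstr3 oligo 2 and -0.83 for Prlr oligo 1. On that pair Vipr2 oligo 1 was at -0.26, close to the median of all tested oligos there (-0.20), Adcyap1r1 oligo 2 had a fitted 4.07, and Prlr oligo 2 had no cortex value. Without both arrays of setting 2, Adcyap1r1 oligo 1 was at 1.34 and Prlr oligo 1 at -1.11, both with an adjusted p of 0.0544 (limma).

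Ligands and sister receptors of the 4 genes were read from lists of peptide signalling genes, receptor genes above left out. In the PACAP and VIP family, 0 of 3 tested oligos were higher in cortex and 1 was lower. Of all tested oligos 24.3% were higher and 23.4% lower. Vip, the ligand of VPAC2, was at -1.16 ± 0.41 log2 units on oligo 1 (SE, limma, adjusted p = 0.0266, 3 cortex and 2 thymus arrays). Oligo 1 was above background on 3 cortex arrays but on only 1 thymus array, so its higher thymus level was mostly not measured. Oligo 2 of Vip was at -0.56 and did not pass. Vipr1, the other VIP receptor, was at -0.30 ± 0.37 on its 1 tested oligo (SE, limma, adjusted p = 0.539).

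The passing oligos of the somatostatin family went opposite to Sstr3. Of 7 tested oligos 4 were higher in cortex and 0 lower, beside 24.3% higher and 23.4% lower of all tested oligos. The median was 1.10 log2 units, or 0.75 with the 2 oligos that were not above background in thymus set at their bounds. The 4 higher oligos were dim in thymus. Oligo 1 of Sst and of Sstr1 each had 1 thymus array above background, while Cort oligo 1 and Sstr4 oligo 2 had 0. Cort oligo 2 and Sstr4 oligo 1, measured on all 3 thymus arrays, had negative differences like Sstr3, without passing. The contrast with Sstr3 thus rests on oligos mostly not measured in thymus. Sst, somatostatin itself, was higher by 2.08 ± 0.41 log2 units on its tested oligo (SE, limma, adjusted p = 0.000481). Cort, which encodes the related peptide cortistatin, was not above background on any thymus array with oligo 1 and at least 2.05-fold higher in cortex. Its scaled means were 10.78 in cortex and 8.78 in thymus, and the fitted difference passed (limma, adjusted p = 0.00033). Oligo 2 of Cort was at -0.60 and did not pass. Sstr1 was higher on oligo 1 by 1.10 ± 0.39 (SE, limma, adjusted p = 0.0266), although its tissues overlapped. Oligo 2 of Sstr1, at 0.75, did not pass. Sstr4 was at least 1.09-fold higher on oligo 2, which was not above background on any thymus array. Its scaled means were 9.86 in cortex and 8.74 in thymus, and the fitted difference passed (limma, adjusted p = 0.0226). Oligo 1 of Sstr4 was at -0.99 and did not pass. Sstr3 was thus the one tested somatostatin receptor gene with an oligo that passed as lower in cortex. But Sstr2 was not tested, being above background on 2 arrays only with each oligo, and Sstr5 was not found on the array.

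Prl, the prolactin gene, was lower in cortex on oligo 1 by limma at -1.32 ± 0.36 log2 units (SE, adjusted p = 0.00586) and at 0.43 on oligo 2, which did not pass. Of 11 tested oligos of other neuropeptide receptors, 0 were higher and 5 lower in cortex, with a median of -0.75, beside 24.3% higher and 23.4% lower of all tested oligos. The 5 included both oligos of the mu opioid receptor gene Oprm1 (-1.08 and -1.52) and 1 of the delta opioid receptor gene Oprd1 (-1.23). The others were 1 each of the tachykinin receptor gene Tacr2 (-1.21) and an entry printed CRH R (-1.54). The other CRH R oligo was at 0.23 and did not pass, and those of Oprd1 and Tacr2 were not tested. Of 7 tested oligos of other neuropeptides 3 were higher in cortex, both of Cck (3.06 on oligo 1 and at least 9.11-fold on oligo 2) and 1 of Tac2 (at least 1.05-fold), and both of Pomc were lower (-1.36 and -1.73). Oligo 2 of Tac2, at -0.10, did not pass. The 2 oligos of Prkaca, a catalytic subunit of the cyclic AMP-dependent kinase, did not pass. Over all lists 7 of 32 tested oligos were higher and 9 lower in cortex, with a median of -0.20, shares near those of all tested oligos (24.3% and 23.4%). Centred on control genes the counts were 10 and 2, beside 28.6% and 8.39% of all oligos. With no scaling they were 8 and 0, beside 24.7% and 0%, so the calls lower in cortex depended on the scaling. Of the 6 neuron marker oligos given above 5 were higher in cortex, while the lists held calls in both directions. The part of neurons in these differences was not tested.

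**Figure D5:**
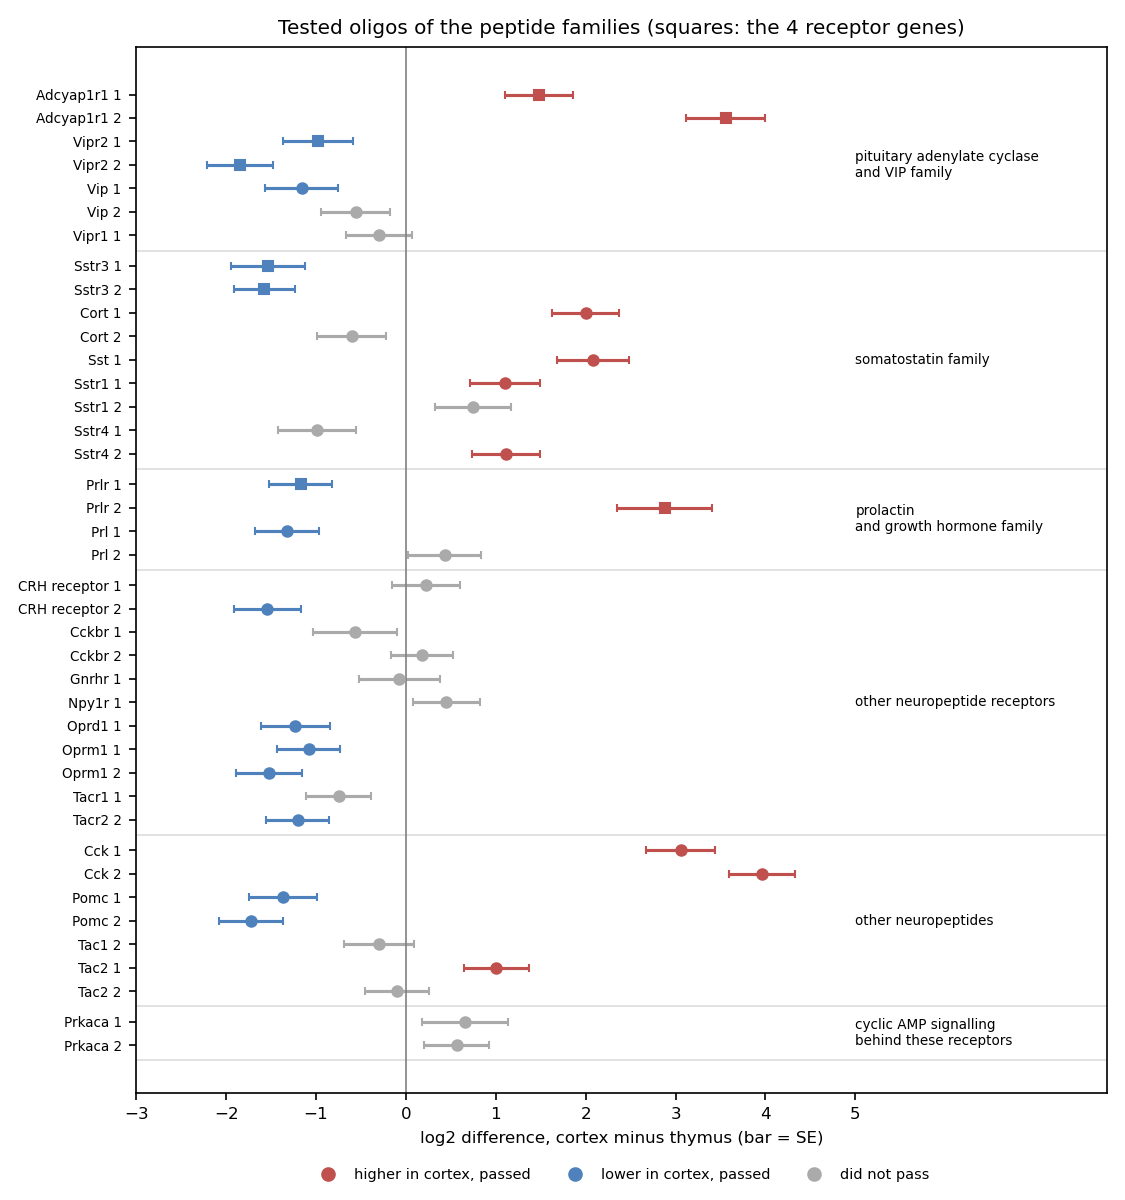
Difference (log2 units, cortex minus thymus, with SE bars) of each tested oligo of the peptide families, with squares for the 4 receptor genes, red for higher and blue for lower in cortex past the threshold, and grey for not passing. In the somatostatin family both Sstr3 oligos, near -1.5, lie apart from Sst, Cort oligo 1, Sstr1 oligo 1 and Sstr4 oligo 2, which passed as higher in cortex.

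Oligos with the most similar profile over the 6 arrays were found as the smallest root mean square (RMS) difference of scaled log2 values centred on each oligo's mean, among 437 or 438 candidates of other genes. Sstr3 oligo 2 had the closest neighbour of the 8, oligo 2 of the serotonin receptor gene Htr6 (RMS 0.0932 log2 units), followed by oligo 2 of the dopamine receptor gene Drd3 (0.131). Prlr oligo 1 lay nearest to an unnamed potassium channel entry (0.118) and to Oprm1 oligo 1 (0.138). Adcyap1r1 oligo 1 lay nearest to potassium channel entries printed birk (0.153) and kv1,4, which is Kcna4 (0.167). Its oligo 2 lay nearest to the AMPA receptor gene Gria2 (0.398) and the GABA-A receptor gene Gabra4 (0.40). All neighbours of the receptor oligos lower in cortex were themselves at negative differences, as a like profile entails. Vipr2 oligo 2 lay nearest to Cebpa (0.233) and Rps4x (0.314), both printed in the control class. Vipr2 oligo 1 lay nearest to Htr1a (0.210) and Ppox (0.225), and Sstr3 oligo 1 to Chrna6 (0.308) and Gabrg3 (0.322). Prlr oligo 2, compared over 5 arrays, had no neighbour closer than Grin2d (0.483), followed by Calb1 (0.556).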

How the data were processed

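The values were spot intensities, deposited without normalization on a linear scale; per the file headers, spots were segmented automatically with a local background for each, and a deposited flag column marks bad spots. No source used here names the quantification software. The authors' value table of the series holds none of the receptor oligos and was not used.

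Foreground medians were background-corrected (normexp, offset 50, all spots) with limma 3.58.1 in R 4.3.3. Flagged spots were dropped, spots of an oligo were averaged as log2 values, and arrays were quantile-scaled. An oligo counted as above background on an array where most of its unflagged spots did. The fit (lmFit, eBayes; two-sided) took every oligo that passed this on 3 or more of the 6 arrays and had 2 or more values in each tissue, and p-values were adjusted over all 465 by Benjamini-Hochberg. Precision is limited by the number of arrays. The fit was tested on simulated data. Python 3.11.15 with pandas 2.3.3, numpy 2.4.6 and matplotlib 3.10.9 did the rest.

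RefSeq accessions named 204 oligos, 37 were named from the printed class and name (Prlr among them), and 349 kept the printed name. The text names all receptor oligos, each listed gene with a passing oligo, and for each receptor oligo the 2 most similar others. The receptor genes and lists were chosen with earlier results of these data known. Same-numbered arrays of the tissues had correlated deviations of 0.17, -0.09 and 0.02, so the numbers were not taken as pairs. Other settings tried were those of background, offset, scaling, dim-probe filter, spot mean, flagged spots, replicate block, scan block and limma's prior, and each array was left out in turn. Leaving out scan setting 2 was added after the data were seen.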

Additional observations from a re-analysis of the deposited data

How the results depend on the processing

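No receptor oligo changed direction under any alternative run, though within the scan settings it could not, as the scaled tissue values did not overlap. With the replicate number as a block, 213 oligos passed in place of 222 and all 8 receptor oligos kept their calls; as the numbers do not pair the arrays, this is no paired analysis. With no scaling, Vipr2 oligo 1 was at -0.019, Vipr2 oligo 2 at -0.84, Sstr3 oligo 1 at -0.50, Sstr3 oligo 2 at -0.56 and Prlr oligo 1 at -0.20, and none of these passed; 0 oligos of the whole array and 0 of the lists were then lower in cortex. Centred on control genes, Vipr2 oligo 1 (-0.54), Sstr3 oligo 1 (-1.03) and Prlr oligo 1 (-0.73) did not pass, and 39 oligos in all and 2 of the lists were lower. Vipr2 oligo 1 also lost its call with plain subtraction (-1.66), no background correction (-1.19), no filter (-0.98, more oligos tested), spot means (-0.83), flagged spots kept (-0.98), scan setting as a block (-0.79) and without scan setting 2 (-1.11); except for the filter, the cause was not tested. Without scan setting 2, which left 4 arrays, Adcyap1r1 oligo 1 (1.34) and Prlr oligo 1 (-1.11) did not pass, 44 oligos were higher and 65 lower in cortex, and 2 of the lists were higher. Within setting 1, without a test, Adcyap1r1 oligo 1 was at 0.78, Prlr oligo 1 at -0.89 and Prlr oligo 2 at 1.23; within setting 2, Adcyap1r1 oligo 2 was at 2.08, Sstr3 oligo 1 at -0.33 and Sstr3 oligo 2 at -1.78. Among oligos above background on all 6 arrays, 18 were higher and 63 lower, with 0 of the lists higher; with no background correction 4 of the lists were higher. Leaving out 1 array in turn gave 46 to 113 oligos higher and 65 to 104 lower, 2 to 7 and 5 to 9 of the lists, -1.05 to -0.57 for Vipr2 oligo 1 and -1.88 to -1.15 for Sstr3 oligo 1. The counts of all oligos higher in cortex were 48, 46 and 58 without cortex arrays 1, 2 and 3, when fewer oligos passed the filter. Adcyap1r1 oligo 2, Prlr oligo 2 and Vipr2 oligo 1 were tested in 3 of these 6 fits, since the filter stayed at 3 arrays. The deposited value table holds no receptor oligo, so it gave no value to compare. Of 24 pairs of receptor oligo and array per tissue, 19 were above background in cortex and 18 in thymus. Dim signal limits Vipr2 oligo 1, Prlr oligo 2 in thymus and Adcyap1r1 oligo 2 in thymus.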
